A study of Mus musculus with 16 samples.

Results

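The integrated stress response and the unfolded protein response of the endoplasmic reticulum (ER) were followed as 35 named genes, each found as 1 row of the 53333 rows of the gene table by its Ensembl identifier. The genes were kept in 3 sets: 13 transcription factors and signalling genes around ATF4 (the ATF4 axis), 11 genes of amino acid synthesis, one-carbon metabolism and amino acid transport, and 11 genes of protein folding in the ER. RNA had been measured by sequencing of ribodepleted total RNA in mHiPPoE-2 cells, a transformed line of mouse hippocampal neurons of the strain Crl:CFW(SW)-024, grown without any treatment. The study asked how RNA changes when RBM45, which binds RNA, is lost and put back, and it also holds cells without METTL3, the enzyme that writes N6-methyladenosine into RNA.

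There were 8 groups of 2 libraries. WT was the unedited line. METTL3 KO was 1 clonal isolate of Cas9-edited cells. The Cas9 control clones 1 and 2 were isolates that received Cas9 with no guide RNA. RBM45 KO clones 1 and 2 were isolates edited in RBM45. KO rescue clones 1 and 2 were RBM45 KO isolates that also carried F-HA-tagged RBM45 that the guide no longer matches, so every group but WT had met Cas9. Each edited genotype is thus known from 1 or 2 clones, and the 2 libraries of a group come from the same line. The control columns of the tables were told by elimination, since all other columns match other groups by name, and for the controls and KO rescue the clone and library numbers used here are names only.

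In these pathways, kinases that sense ER stress, lack of amino acids, viral RNA or lack of heme phosphorylate the translation factor eIF2, which slows protein synthesis in general and lets ATF4 be translated. ATF4 then switches on genes for amino acid supply, transfer RNA charging, redox balance and, through CHOP (the product of Ddit3), further stress genes. The ER arm works through ATF6 and through IRE1, which splices the messenger RNA of Xbp1, and it raises chaperones such as BiP (the product of Hspa5).

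The promoters of some of the genes hold motifs by which these arms are known to act, and these are given as background. Whether they bear on the values that follow was not tested. RefSeq promoter sequences (GRCm38.p6, 250 bases before to 50 bases after the start of transcription) were at hand for 30 of the 35 genes, and both strands were searched for 4 motifs. The C/EBP-ATF response element TGATGNAA, through which ATF4 acts, was found for 7 genes (Chac1, Trib3, Nupr1, Vldlr, Asns, Slc7a11 and Herpud1) and in 3.97% of all 32851 promoters of this length. The ER stress response element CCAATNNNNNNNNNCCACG was found for 4 genes, Hspa5, Calr, Dnajc3 and Creld2, all of the ER folding set, and in 0.119% of all promoters. Its second form ATTGGNCCACG was found for Herpud1 alone, and in 0.0365% of all promoters. The unfolded protein response element TGACGTGG was found for no gene of the sets, and in 0.676% of all promoters. The last motif ends in the reverse complement of CCACG and could overlap the ER elements, but no match here overlapped another. The matches stand in capitals in the following stretches, written 5′ to 3′ on the strand of the gene, on GRCm38. Where an exon of another transcript covers the place, at most 30 bases are shown.

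Asns, chr6:7693214-7693243, minus strand: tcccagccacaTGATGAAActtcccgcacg

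Slc7a11, chr3:50443623-50443709, minus strand: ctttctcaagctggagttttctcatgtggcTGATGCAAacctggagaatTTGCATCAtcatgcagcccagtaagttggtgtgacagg

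Chac1, chr2:119351019-119351086, plus strand: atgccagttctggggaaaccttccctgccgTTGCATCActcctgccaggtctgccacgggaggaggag

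Nupr1, chr7:126625562-126625591, minus strand: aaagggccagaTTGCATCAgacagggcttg

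Vldlr, chr19:27216809-27216838, plus strand: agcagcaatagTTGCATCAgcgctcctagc

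Herpud1, chr8:94386287-94386417, plus strand: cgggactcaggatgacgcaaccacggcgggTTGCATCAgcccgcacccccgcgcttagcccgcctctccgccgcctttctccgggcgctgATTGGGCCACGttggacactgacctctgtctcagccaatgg

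Hspa5, chr2:34772020-34772048, plus strand: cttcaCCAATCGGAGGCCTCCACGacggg

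Calr, chr8:84847045-84847123, minus strand: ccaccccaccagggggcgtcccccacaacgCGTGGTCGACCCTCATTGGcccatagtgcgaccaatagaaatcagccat

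Dnajc3, chr14:118937797-118937875, plus strand: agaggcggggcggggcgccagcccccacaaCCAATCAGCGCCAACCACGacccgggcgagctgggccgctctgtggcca

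Creld2, chr15:88819490-88819568, plus strand: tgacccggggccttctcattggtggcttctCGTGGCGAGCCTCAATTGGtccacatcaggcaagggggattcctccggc

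Slc7a11 held 2 matches of the ATF4 element, and Herpud1 was the one gene with both an ATF4 and an ER element. The match for Trib3 began at base 15 after the start and is not shown. A match is a string of letters and was not tested as a binding site.

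Library totals ran from 7193908 to 18751324 counts, of which 12 very abundant genes 53.3% to 70.6%, so that 2580543 to 7167022 fell on the rest. WT library 1 had the fewest such counts. Rbm45 stood at 12.8 to 16.7 CPM (counts scaled to library size by TMM) in the 4 control libraries, 5.70 to 10.8 CPM in the 4 RBM45 KO libraries and 21.1 to 25.9 CPM in the 4 KO rescue libraries. It had 11.1 and 14.2 CPM in WT and 10.6 and 10.9 CPM in METTL3 KO, so the highest RBM45 KO library lay between the METTL3 KO libraries. Mettl3 was at 3.71 and 3.35 CPM in METTL3 KO and between 8.07 and 11.7 CPM in every other library. Of 10 neuron markers 8 averaged under 1 CPM, and Stmn2 and Nefl were at 0 in all 16 libraries, while Map2 ran from 39.7 to 138 CPM. Of 4 mesenchyme markers, which together ran from 1400 to 4680 CPM, Col1a2 had 0.144 to 5.47 CPM. Most defining neuron markers were thus near 0 in cells labelled as neurons. The mesenchyme markers summed to 2080 and 2160 CPM in the WT libraries, 1400 and 1450 CPM in METTL3 KO and 3680 to 3830 CPM in control clone 1. Their part in the results was not tested.

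All 35 genes were expressed. The lowest count of any of them in a library was 35 (Trib3 in WT library 2) and the highest was 5025 (Hspa5). Per kilobase of exon, over the 32 genes that share their row with no other gene, the ER chaperones Calr and Hspa5 led with 148 and 97.1 CPM per kb, followed by Atf4 with 82.3 CPM per kb and by Phgdh and Shmt2, enzymes of serine and glycine synthesis, with 67.4 and 52.3 CPM per kb. The cystine transporter gene Slc7a11 was the lowest with 1.65 CPM per kb, below Vldlr, a lipoprotein receptor, with 2.31 CPM per kb and Dnajb9, an ER cochaperone, with 2.75 CPM per kb. For 14 genes another gene lies on the opposite strand. The counting used a strand setting, but the labels name a kit that keeps no strand, so the reads of both cannot be told apart. Among the genes discussed most this holds for Atf5, Ddit3, Cebpb, Ppp1r15a, Slc7a5, Psph, Aldh1l2, Manf and Herpud1. The row opposite Slc7a5 (Galnt2, Gm20388 and Usp10) had 1856734 counts over the 16 libraries, beside 14077 for Slc7a5. The rows of Manf, Cebpg and Pdia4, 3 in all, also count Rbm15b, Gm44836 and Mir704.

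A large difference in these genes lay inside a group. WT library 1 was higher than WT library 2 in 31 of the 35 genes: in 13 of 13 of the ATF4 axis, in 11 of 11 of the amino acid genes and in 7 of 11 of the ER folding genes. The median log2 ratio of library 1 over library 2 was 1.02 in the ATF4 axis, 1.08 in the amino acid genes and 0.14 in the ER folding genes, against 0.00 over all 16223 genes tested. At least 2-fold higher in library 1 were 15 of the 35 genes, where 5.58% of all genes with counts in both were. In bulk RNA a change in the share of cells that make a transcript and a change in the RNA per cell cannot be told apart.

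Chac1, which codes for an enzyme that degrades glutathione, had 34.7 CPM in WT library 1 and 5.29 CPM in WT library 2, a log2 ratio of 2.71 (95% interval from counting error alone 2.28 to 3.17). Slc7a11 had 89.4 and 16 CPM, a log2 ratio of 2.48 (2.23 to 2.74). Trib3, a pseudokinase induced by ATF4 and CHOP, had 18.9 and 3.50 CPM, a log2 ratio of 2.43 (1.88 to 3.01). These 3 genes differed most. The next were Cebpb, a partner of ATF4 (77.7 and 19.8 CPM), Ppp1r15a, the stress-induced subunit that guides the phosphatase of eIF2 (62.9 and 18 CPM), and Slc3a2, the shared heavy chain of amino acid transporters (174 and 52.8 CPM). Calr, Creld2, Sdf2l1 and Dnajc3, all of the ER folding set, went the other way and were higher in library 2, Creld2 with 15.7 and 23.3 CPM and Sdf2l1, an ER stress-induced folding factor, with 7.05 and 11.1 CPM. Which of the 2 WT libraries stands for the line cannot be told from 2 libraries.

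WT library 1 held the highest value of all 16 libraries for 24 of the 35 genes, and for 10.3% of all 16223 genes. By set it was highest for 11 of 13 genes of the ATF4 axis, 11 of 11 amino acid genes and 2 of 11 ER folding genes. WT library 2 was the highest for none. Set against the range of the 4 control libraries, WT library 1 lay within it for 9 of 35 genes, 8 of them ER folding genes, and WT library 2 for 29 of 35. Among the amino acid genes WT library 2 lay within it for 9 of 11 and WT library 1 for 0. Counts within the control range have no share of all genes beside them and are not read further.

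**Figure D1:**
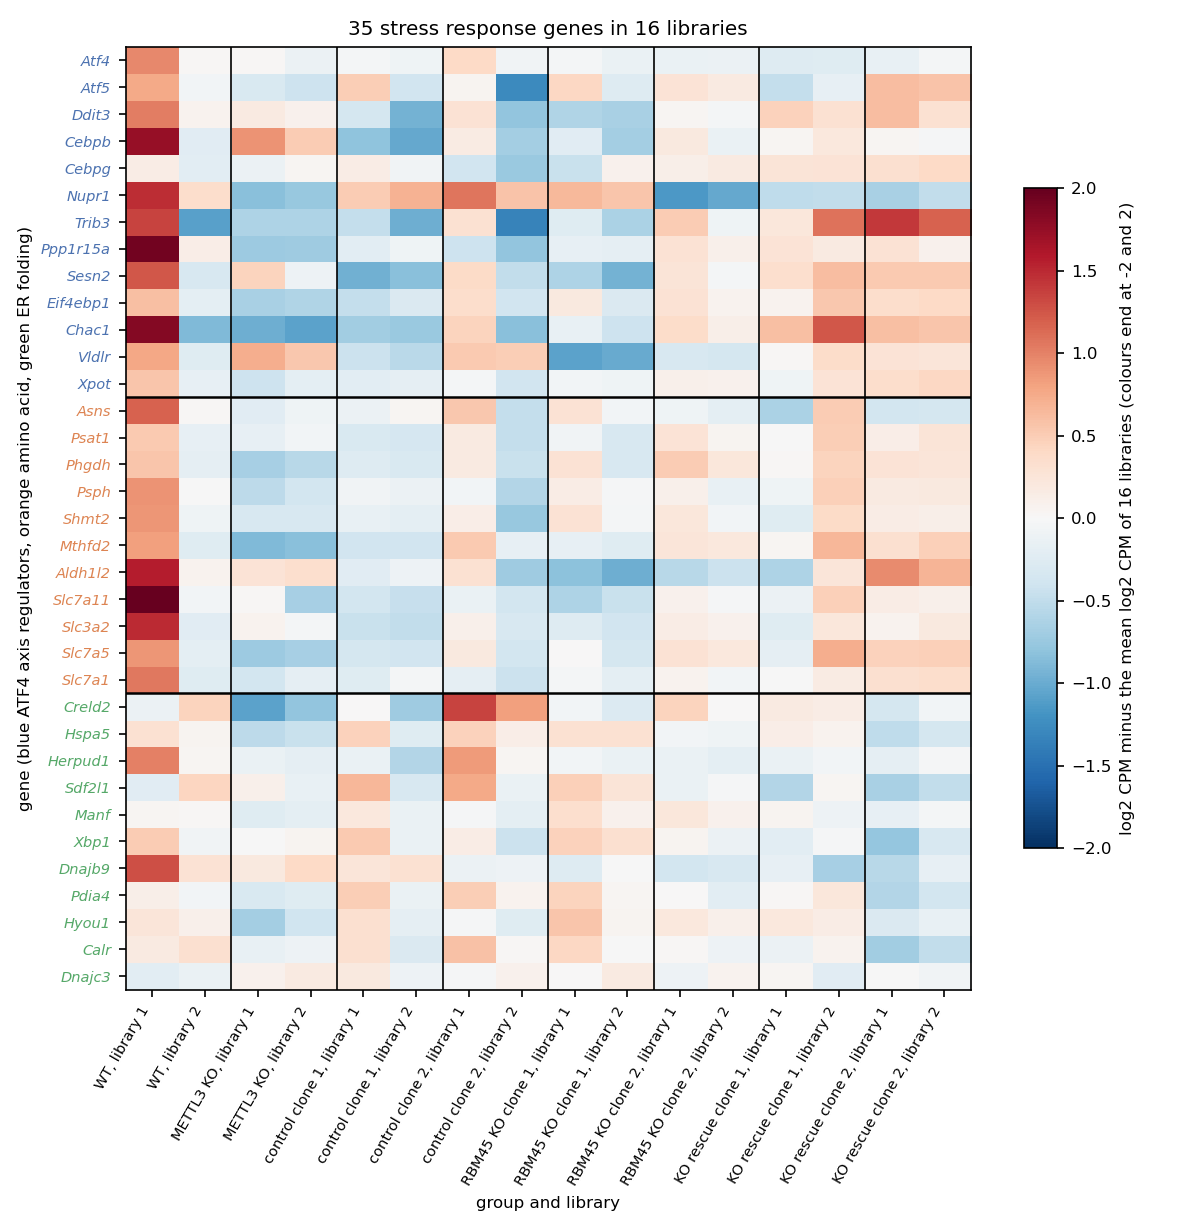
Log2 CPM of the 35 genes (rows, in 3 sets) in the 16 libraries (columns, 2 per group), each less the gene's own mean over the 16 libraries, with red for higher and blue for lower. WT library 1 is the reddest column in the ATF4 axis and the amino acid genes, while METTL3 KO, RBM45 KO clone 2 and KO rescue clone 2 are mostly even within their pairs.

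Other pairs differed less. In control clone 2, library 1 was higher in 33 of 35 genes with a median log2 ratio of 0.57, led by Trib3 (9.14 and 2.92 CPM) and Atf5, a relative of ATF4 (45.4 and 18.1 CPM). In control clone 1, library 1 was higher in 10 of 11 ER folding genes with a median log2 ratio of 0.60, whereas the median was 0.03 in its amino acid genes. In KO rescue clone 1 all 11 amino acid genes were higher in library 2, with a median log2 ratio of -0.59 for library 1 over library 2, led by Asns, asparagine synthetase (19.6 and 43.2 CPM). The pairs of METTL3 KO, RBM45 KO clone 2 and KO rescue clone 2 were the closest, with a median size of the log2 ratio of 0.10, 0.12 and 0.12 over the 35 genes, beside 0.95 in WT. The amino acid genes and the ER folding genes thus shifted separately from library to library in control clone 1 and KO rescue clone 1.

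**Figure D2:**
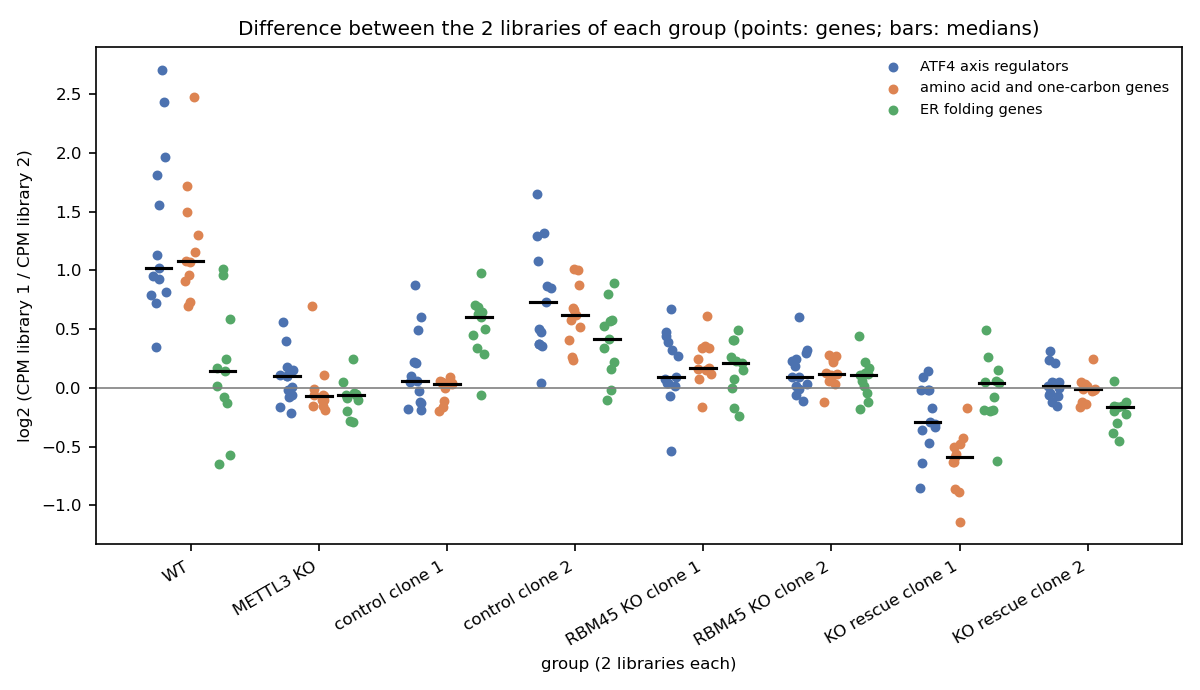
Log2 ratio of CPM in library 1 over library 2 within each of the 8 groups, 1 point per gene, coloured by set, with a bar at each set's median. The WT points of the ATF4 axis and amino acid sets lie above 0 for every gene, and the amino acid points of KO rescue clone 1 lie below 0 for every gene.

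Atf4 (chr15:80255184-80257541, plus strand), the transcription factor at the centre of the response, stood at 243 CPM in WT library 1 and at 104 to 166 CPM in the other 15 libraries. Control clone 2 library 1 was the next highest, with 166 CPM. The METTL3 KO libraries had 128 and 115 CPM, the 4 RBM45 KO libraries 115 to 121 CPM, and the 4 KO rescue libraries 104 to 122 CPM, so apart from these 2 libraries the groups overlapped in a narrow band. ATF4 is controlled mainly at translation, which these data do not measure.

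Ddit3 (chr10:127290774-127296288, plus strand), which codes for CHOP, stood at 28.1 and 14.5 CPM in WT and 15.6 and 14.6 CPM in METTL3 KO. The control libraries had 10.8 and 7.16 CPM in clone 1 and 16.9 and 8.01 CPM in clone 2. RBM45 KO gave 9.03 and 8.80 CPM in clone 1 and 14.2 and 13.3 CPM in clone 2, and KO rescue gave 18.9, 17.1, 21.1 and 17 CPM. The 4 KO rescue libraries lay above all control and RBM45 KO libraries, by little over control clone 2 library 1.

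Asns (chr6:7675169-7693254, minus strand), a classical ATF4 target, had 68.8 and 30.8 CPM in WT, 25.9 and 28.6 CPM in METTL3 KO, 21.9 to 43.8 CPM in the controls, 26.5 to 37.1 CPM in RBM45 KO and 19.6 to 43.2 CPM in KO rescue. All groups overlapped but for WT library 1, which stood above the rest. Hspa5 (chr2:34771970-34777547, plus strand), the main ER chaperone, had 281 and 237 CPM in WT and 158 and 168 CPM in METTL3 KO. In the clones it had 194 to 316 CPM in the controls, 216 to 283 CPM in RBM45 KO, 250 and 240.0 CPM in KO rescue clone 1 and 161 and 178 CPM in KO rescue clone 2. METTL3 KO and KO rescue clone 2 were the lowest groups. Xbp1 (chr11:5520659-5525893, plus strand), the transcription factor made active by IRE1, had 18.3 and 12.2 CPM in WT, 12.8 and 13.3 CPM in METTL3 KO, 9.51 to 18.4 CPM in the controls, 11.8 to 17.7 CPM in RBM45 KO and 7.51 to 12.7 CPM in KO rescue. WT, the controls and RBM45 KO overlapped one another, and both METTL3 KO libraries lay above all 4 KO rescue libraries, the nearest of which had 12.7 CPM.

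**Figure D3:**
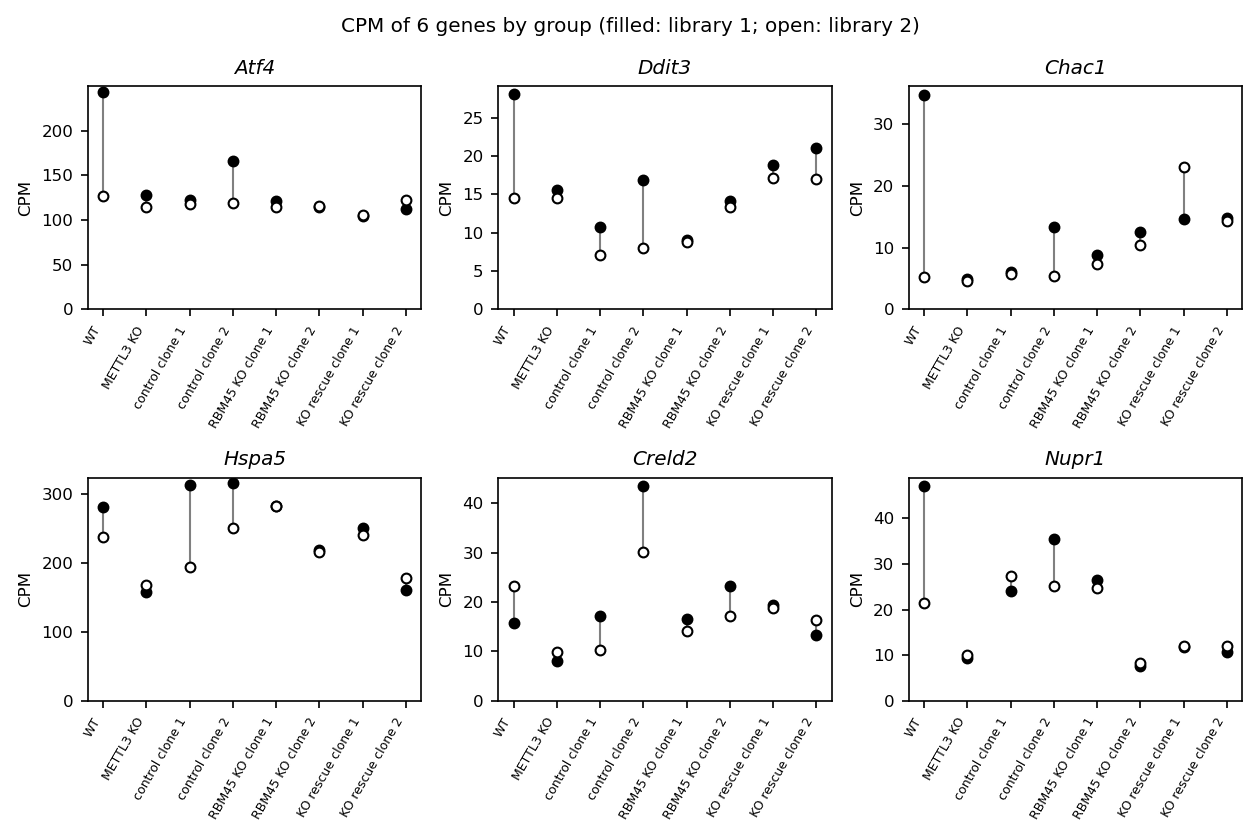
CPM (linear axis from 0) of Atf4, Ddit3, Chac1, Hspa5, Creld2 and Nupr1 in the 8 groups, with library 1 filled, library 2 open and a line joining the pair. WT library 1 stands apart for Atf4, Ddit3 and Chac1 but not for Hspa5 or Creld2, and Nupr1 is near 10 CPM in METTL3 KO, RBM45 KO clone 2 and both KO rescue clones.

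METTL3 KO was set against WT to see how these lines differ. With 1 METTL3 KO isolate, loss of METTL3 cannot be told apart from Cas9, cloning or the isolate itself. Of the 35 genes 16 were lower in METTL3 KO by the quasi-likelihood test of edgeR at an adjusted p under 0.05, where 11.8% of all 16223 genes were, and 0 were higher, where 11.2% were. At an unadjusted p under 0.05, 21 of the 35 differed, and DESeq2 called 16 lower and 0 higher. Neither count has a share of all genes beside it, so both show only how the choice of test moves the count. The ATF4 axis had 6 of 13 lower with a median log2 change of -0.60, the amino acid genes 7 of 11 with -0.84, and the ER folding genes 3 of 11 with -0.38, beside a median of 0.01 over all genes. The count moved with the libraries used. With WT library 1 left out 3 of 35 were lower and 2 higher, where 5.77% and 5.83% of all 17089 genes were, and the set medians were -0.07, -0.24 and -0.24. With WT library 2 left out instead 25 were lower, where 10.3% of all 17098 genes were. Leaving out METTL3 KO library 1 left 5 called, all lower, where 12% of all genes were called in either direction, and leaving out METTL3 KO library 2 left 5, all lower, where 10.3% were. In these fits the lone library of a group is taken to vary like the other groups.

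Nupr1, a small stress-induced chromatin protein, had 46.9 and 21.5 CPM in WT and 9.45 and 10.0 CPM in METTL3 KO, a log2 change of -1.78 ± 0.26 (SE, edgeR adjusted p = 0.000157). It was also lower without WT library 1 (log2 change -1.14, edgeR adjusted p = 0.00102) and against the 2 control clones (log2 change -1.51, edgeR adjusted p = 9.4e-05). Creld2, an ER protein of the unfolded protein response, had 15.7 and 23.3 CPM in WT and 8.10 and 9.81 CPM in METTL3 KO, a log2 change of -1.12 ± 0.26 (SE, edgeR adjusted p = 0.00533). It too was lower without WT library 1 (-1.36, edgeR adjusted p = 0.00368) and against the controls (-1.30, edgeR adjusted p = 0.000297), but did not pass without WT library 2 (-0.79, edgeR adjusted p = 0.0827). For both genes the METTL3 KO libraries lay below every WT and control library.

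Ppp1r15a had 62.9 and 18 CPM in WT and 9.90 and 10.1 CPM in METTL3 KO, a log2 change of -1.99 ± 0.35 (SE, edgeR adjusted p = 0.000845). Without WT library 1 the change was -0.85 (edgeR adjusted p = 0.00608). Against the control clones it was -0.34 (edgeR adjusted p = 0.454), which does not pass, and control clone 2 library 2, with 9.51 CPM, was as low as METTL3 KO. Slc7a11 had 89.4 and 16 CPM in WT and 17 and 10.5 CPM in METTL3 KO, a log2 change of -1.94 ± 0.47 (SE, edgeR adjusted p = 0.00679). That call was lost without WT library 1, and against the control clones the change was 0.02 (edgeR adjusted p = 0.978), with 12.1 to 15.2 CPM in the controls. The controls lay between the 2 METTL3 KO libraries.

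Of the other genes with the smallest p, Mthfd2, a mitochondrial folate enzyme, had 52.8 and 25.1 CPM in WT and 16.1 and 16.8 CPM in METTL3 KO, a log2 change of -1.22 ± 0.28 (SE, edgeR adjusted p = 0.00475). Against the controls it was also lower (-0.77, edgeR adjusted p = 0.0229). Slc7a5, the light chain of a large neutral amino acid transporter, had 120.0 and 57.2 CPM in WT and 39.6 and 41.6 CPM in METTL3 KO, a log2 change of -1.12 ± 0.29 (SE, edgeR adjusted p = 0.0105), and over its exon bins alone -1.0 (edgeR adjusted p = 0.0196). Psph, the last enzyme of serine synthesis, changed by -0.92 ± 0.25 (SE, edgeR adjusted p = 0.0125). Hyou1, an ER chaperone that assists BiP, had 79.7 and 72.3 CPM in WT and 41.9 and 51.0 CPM in METTL3 KO, a log2 change of -0.70 ± 0.18 (SE, edgeR adjusted p = 0.00973). Of these 4 genes none passed without WT library 1, where Hyou1 stood at -0.63 (edgeR adjusted p = 0.0614). The 2 WT libraries of Hyou1 were close, and both METTL3 KO libraries lay below all WT and control libraries.

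Among the genes followed in every comparison, Hspa5 fell by 0.67 ± 0.18 (SE) on the log2 scale (edgeR adjusted p = 0.0135), and against the controls by 0.71 (edgeR adjusted p = 0.00252), while without WT library 1 it did not pass (-0.54, edgeR adjusted p = 0.106). Atf4 fell by 0.60 ± 0.21 (SE) on the log2 scale (edgeR adjusted p = 0.0473), a call that was lost without WT library 1. Asns at -0.85 (edgeR adjusted p = 0.0901), Ddit3 at -0.47 (edgeR adjusted p = 0.26) and Xbp1 at -0.19 (edgeR adjusted p = 0.599) did not pass.

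With the 2 control clones in place of WT, 6 of 35 genes were lower in METTL3 KO, where 14.5% of all genes were, and 2 higher, where 16.1% were (edgeR), and the set medians were -0.10, -0.11 and -0.32. The 6 were Nupr1, Creld2, Hspa5, Mthfd2, Hyou1 and Pdia4, a disulfide isomerase of the ER (-0.53, edgeR adjusted p = 0.0275). Read library by library, both METTL3 KO libraries lay below all 6 WT and control libraries for 11 of 35 genes, where 14.6% of all genes did, and above them for 0, where 15.6% did. These were 5 ER folding genes (Creld2, Hspa5, Manf, Pdia4 and Hyou1), 3 amino acid genes (Phgdh, Mthfd2 and Slc7a5) and 3 genes of the ATF4 axis (Nupr1, Eif4ebp1 and Chac1).

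In METTL3 KO 2 genes of the ATF4 axis were higher once WT library 1 was not a reference. Cebpb was higher without WT library 1 (log2 change 0.94, edgeR adjusted p = 0.0318) and against the controls (1.27, edgeR adjusted p = 0.00687), with 43.5 and 33.0 CPM beside 11.4 to 26.1 CPM in the controls. Vldlr likewise changed by 0.87 (edgeR adjusted p = 0.00425) and 0.62 (edgeR adjusted p = 0.0134), with 24.3 and 21.5 CPM beside 10.9 and 10.2 CPM in control clone 1 and 21.3 and 20.6 CPM in control clone 2. WT library 1 had 25.3 CPM of Vldlr, above METTL3 KO.

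**Figure D4:**
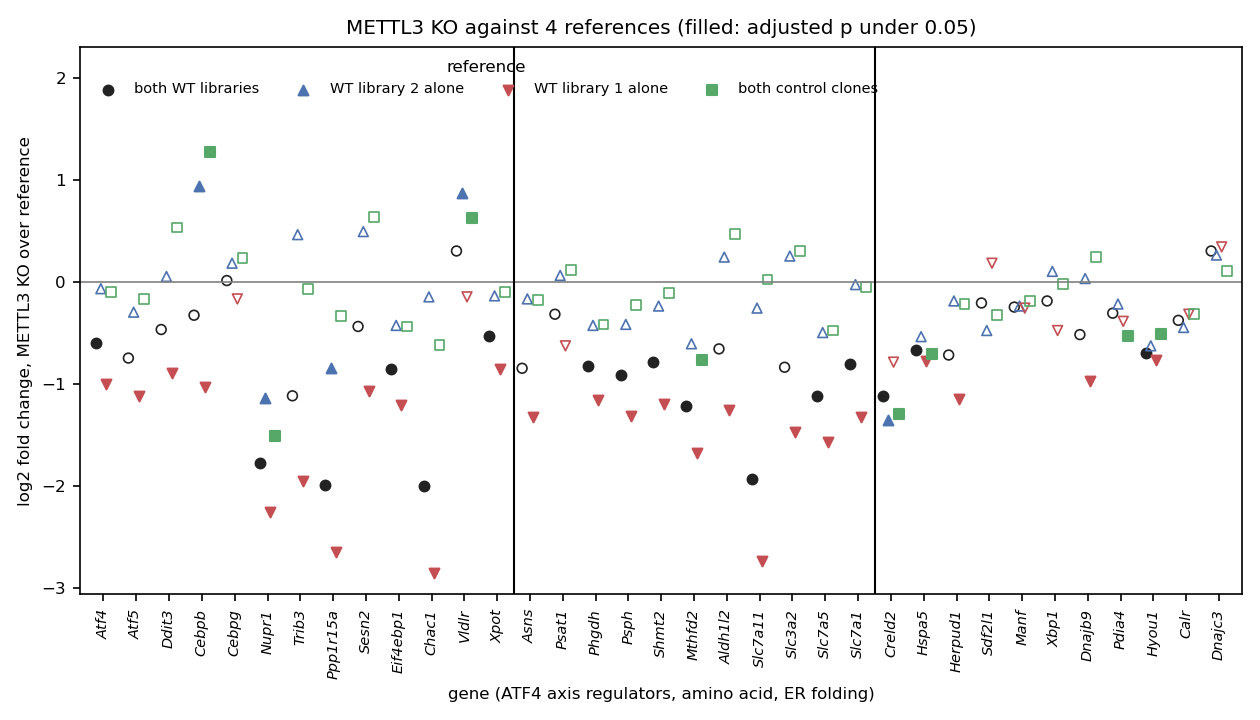
Log2 fold change of the 35 genes in METTL3 KO (edgeR, vertical axis) against both WT libraries (circles), WT library 2 alone (upward triangles), WT library 1 alone (downward triangles) and the 2 control clones (squares), with filled symbols for an adjusted p under 0.05. The ATF4 axis and amino acid genes spread widely by reference, from -2.0 to -0.62 for Chac1 with both WT libraries and with the controls, while Hspa5 lies below 0 under all 4.

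The control clones were set against WT to see what passing through Cas9 and cloning went with. Of the 35 genes 10 were lower in the controls, where 5.79% of all genes were, and 0 were higher, where 3.19% were (edgeR), with 19 of 35 at an unadjusted p under 0.05 and 8 lower by DESeq2. The 10 were 4 genes of the ATF4 axis, 5 amino acid genes and 1 ER folding gene. The counts at an unadjusted p and by DESeq2 have no share of all genes beside them and are not read further. Without WT library 1 none of the 35 was called, where 1.88% of all 17089 genes were lower, and 2 of 35 had an unadjusted p under 0.05. Without WT library 2, 24 were lower, where 7.03% of all 17098 genes were. Leaving out control clone 2 library 1 gave 21 lower, where 7.04% of all genes were. Leaving out control clone 1 library 1 gave 5, where 4.89% were, control clone 1 library 2 gave 4, where 3.81% were, and control clone 2 library 2 gave 5, where 4.04% were. The set medians with both WT libraries were -0.58, -0.68 and -0.06.

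Ppp1r15a had 14.1, 15.5, 12.3 and 9.51 CPM in the 4 control libraries, a log2 change of -1.64 ± 0.28 (SE, edgeR adjusted p = 0.00116). Slc7a11 changed by -1.97 ± 0.38 (SE, edgeR adjusted p = 0.00279), and Cebpb, with 13.3, 11.4, 26.1 and 14.5 CPM, by -1.60 ± 0.33 (SE, edgeR adjusted p = 0.00498). For Ppp1r15a and Slc7a11 every control library lay below both WT libraries, whereas Cebpb in control clone 2 library 1 lay above WT library 2. Slc3a2 changed by -1.14 ± 0.27 (SE, edgeR adjusted p = 0.013), Ddit3 by -1.0 ± 0.25 (SE, edgeR adjusted p = 0.0185), Aldh1l2, a mitochondrial folate enzyme, by -1.13 ± 0.30 (SE, edgeR adjusted p = 0.0263), Sesn2, a leucine sensor, by -1.07 ± 0.30 (SE, edgeR adjusted p = 0.0335), and the cationic amino acid transporter gene Slc7a1 by -0.76 ± 0.22 (SE, edgeR adjusted p = 0.034). Atf4 at -0.50 (edgeR adjusted p = 0.0917), Asns at -0.67 (edgeR adjusted p = 0.175), Xbp1 at -0.18 (edgeR adjusted p = 0.654) and Hspa5 at 0.05 (edgeR adjusted p = 0.886) did not pass.

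Loss of RBM45 was tested over clones, 2 RBM45 KO against 2 controls, with the counts of a clone's libraries added. None of the 35 genes passed, and 0% of the 16867 genes tested did (edgeR), with 983 of all genes and 1 of the 35 at an unadjusted p under 0.05 and 0 of the 35 by DESeq2. With 2 clones a side, a change of the size seen here may not have been detectable. The set medians were 0.26 in the ATF4 axis, 0.21 in the amino acid genes and -0.07 in the ER folding genes, beside -0.01 over all genes. The smallest p among the 35 belonged to Shmt2 (log2 change 0.35 ± 0.13), Phgdh (0.41 ± 0.17) and Vldlr (-0.73 ± 0.38, all SE), each at an edgeR adjusted p of 0.754. Shmt2 had 72.3, 70.2, 87.7 and 47.6 CPM in the controls and 98.6, 77.9, 93.7 and 77.1 CPM in RBM45 KO, so the libraries overlapped. Phgdh had 76.8, 73.9, 104 and 67.2 CPM in the controls and 111, 73.2, 129 and 107 CPM in RBM45 KO, with RBM45 KO clone 1 library 2 among the controls. Vldlr had 10.9, 10.2, 21.3 and 20.6 CPM in the controls and 6.99, 7.33, 11.7 and 11.5 CPM in RBM45 KO, while its log2 change between clones was 0.99 in the controls and 0.70 in RBM45 KO. For no gene of the 35 did all 4 libraries of one side lie beyond all 4 of the other, where 3.53% of all genes were so separated upward and 3.25% downward. When the spread between libraries was used in place of that between clones, 2 of 35 were lower, Nupr1 and Vldlr, where 7.63% of all genes were, and 0 higher, where 7.85% were.

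Restoring tagged RBM45 was tested in the same way, KO rescue against RBM45 KO. None of the 35 genes passed, and 0% of all genes did (edgeR), with 1239 of all 16867 genes and 5 of the 35 at an unadjusted p under 0.05 and 0 of the 35 by DESeq2. DESeq2 gave no adjusted p here for some of the 35, Aldh1l2 and Ddit3 among them, so its count does not cover them all. The edgeR medians were 0.25 in the ATF4 axis with 11 of 13 above 0, 0.20 in the amino acid genes with 9 of 11 above 0, and -0.25 in the ER folding genes with 10 of 11 below 0. Trib3 had 6.24, 4.74, 10.6 and 6.98 CPM in RBM45 KO and 8.66, 15.6, 19.7 and 16.7 CPM in KO rescue, a log2 change of 1.05 ± 0.32 (SE, edgeR adjusted p = 0.662). The highest RBM45 KO library lay above the lowest KO rescue library. Aldh1l2 had 9.68, 8.63, 11.7 and 12.7 CPM in RBM45 KO and 11.1 and 20.2 CPM in KO rescue clone 1 against 32.7 and 27.4 CPM in clone 2, a log2 change of 1.06 ± 0.34 (SE, edgeR adjusted p = 0.662). Its rise was mostly that of KO rescue clone 2. Sdf2l1 had 11.4, 9.83, 7.46 and 8.11 CPM in RBM45 KO and 5.46, 8.42, 5.23 and 5.83 CPM in KO rescue, a log2 change of -0.60 ± 0.22 (SE, edgeR adjusted p = 0.662).

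Library by library, all 4 KO rescue libraries lay above all 4 RBM45 KO libraries for Ddit3, Cebpg, Sesn2, Chac1 and Vldlr, 5 of the 35 genes where 8.35% of all genes did, and below them for Manf, where 6.66% did. With the spread between libraries 5 of 35 were higher, Vldlr, Aldh1l2, Ddit3, Sesn2 and Trib3, where 9.62% of all genes were, and Xbp1 alone was lower, where 8.37% were. These genes were picked out after their values were seen. Clone by clone with that spread, neither KO rescue clone had any of the 35 called over RBM45 KO clone 2. Over RBM45 KO clone 1, KO rescue clone 1 had 3 ATF4 axis genes higher and 1 lower. KO rescue clone 2 there had 5 ATF4 axis genes higher and 1 lower, 1 amino acid gene higher and 6 ER folding genes lower. No share of all genes stands beside these clone counts.

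KO rescue against control showed the largest set medians of the 3 clone comparisons: 0.54 in the ATF4 axis with 11 of 13 genes above 0, 0.44 in the amino acid genes with 10 of 11 above 0, and -0.36 in the ER folding genes with 10 of 11 below 0. The ER folding difference was mostly that of KO rescue clone 2, as given by clone below. Again none of the 35 passed, and 0% of all genes did (edgeR), while 2620 of all 16867 genes and 14 of the 35 had an unadjusted p under 0.05, and the 35 had edgeR adjusted p-values of 0.276 and above. DESeq2 called 2 of the 35 higher, Trib3 and Chac1, where it called 0.632% of 30679 genes. That total counts genes whether or not DESeq2 gave them an adjusted p. The controls, RBM45 KO and KO rescue are each used in 2 of these comparisons, so the values of the comparisons are not independent.

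Trib3 had 5.30, 3.76, 9.14 and 2.92 CPM in the controls, a log2 change of 1.57 ± 0.33 (SE, edgeR adjusted p = 0.276; DESeq2 adjusted p = 0.00405). KO rescue clone 1 library 1, with 8.66 CPM, lay below control clone 2 library 1. Chac1 had 6.04, 5.80, 13.3 and 5.43 CPM in the controls, 8.82, 7.33, 12.5 and 10.5 CPM in RBM45 KO and 14.7, 23, 14.8 and 14.4 CPM in KO rescue, a log2 change over control of 1.16 ± 0.28 (SE, edgeR adjusted p = 0.276; DESeq2 adjusted p = 0.0219). Its KO rescue libraries lay above all controls, and its RBM45 KO libraries overlapped the controls. Ddit3 changed by 0.85 ± 0.25 (SE, edgeR adjusted p = 0.276). Atf4 itself stood at -0.23, Asns at -0.21, Hspa5 at -0.35 and Xbp1 at -0.36, with edgeR adjusted p from 0.47 to 0.57.

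All 4 KO rescue libraries lay above all 4 control libraries for 6 of the 35 genes, Ddit3, Cebpg, Ppp1r15a, Chac1, Slc7a11 and Slc7a1, where 11.9% of all genes did, and below them for 2, Nupr1 and Dnajb9, where 11.6% did. With the spread between libraries 10 of 35 were higher, where 17.5% of all genes were, and 5 lower, where 16.9% were. The 10 were Trib3, Cebpg, Ddit3, Sesn2, Chac1, Xpot (an exporter of transfer RNA from the nucleus) and Eif4ebp1 (a repressor of translation) of the ATF4 axis and Psat1, Phgdh and Slc7a5 of the amino acid genes. The 5 were Nupr1 and, of the ER folding genes, Calr, Hspa5, Pdia4 and Sdf2l1. In KO rescue clone 1 the ER folding median was -0.07 over control clone 1 and -0.21 over control clone 2. In KO rescue clone 2 these medians were -0.58 and -0.59. The ER folding genes were thus lower mostly in KO rescue clone 2. The fit with the spread between libraries compares these lines and not the genotypes, and its replicates are libraries of the same clone.

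**Figure D5:**
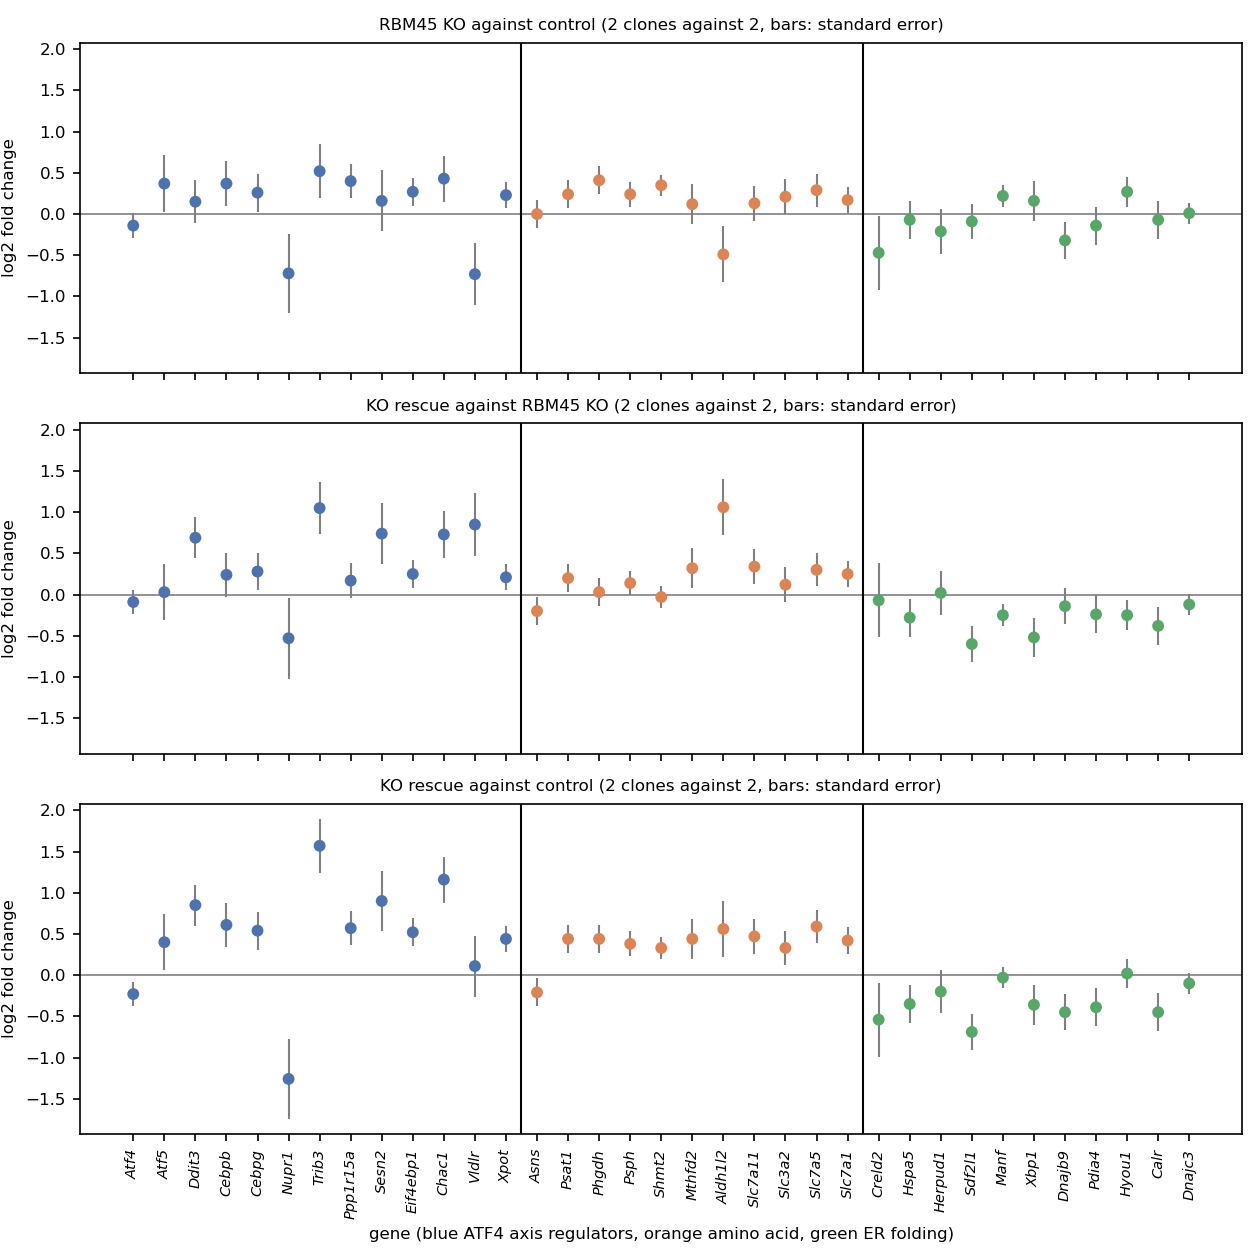
Log2 fold change (edgeR, points) and its standard error (bars) of the 35 genes in 3 panels (RBM45 KO over control, KO rescue over RBM45 KO, KO rescue over control), each with 2 clones per side, coloured by set. In the lowest panel 10 of 11 ER folding genes lie below 0 and 21 of 24 other genes above it, and none of the points passes the test.

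Clones of 1 genotype were compared with each other to see how far the genes vary between isolates, with the spread between libraries. Control clone 2 over control clone 1 had 3 of 35 genes higher, where 9.96% of all 16223 genes were, and 1 lower, where 9.61% were (edgeR). Creld2 had 17.1 and 10.4 CPM in clone 1 and 43.4 and 30.1 CPM in clone 2, a log2 change of 1.41 ± 0.23 (SE, edgeR adjusted p = 0.000274). Vldlr rose by 0.99 ± 0.21 (SE, edgeR adjusted p = 0.00287), and Herpud1, which helps to clear misfolded proteins from the ER, rose by 0.83 ± 0.25 (SE, edgeR adjusted p = 0.0264) from 16.8 and 12.3 CPM to 33.2 and 19 CPM. Cebpg, a partner of ATF4, was lower in clone 2 (-0.60 ± 0.17, SE, edgeR adjusted p = 0.0197). The pairs did not overlap for any of these 4 genes.

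RBM45 KO clone 2 over RBM45 KO clone 1 had 1 gene lower, where 7.65% of all genes were, and 0 higher, where 6.49% were (edgeR), with 3 of the 35 at an unadjusted p under 0.05 and 0 higher by DESeq2. The gene was Nupr1, with 26.4 and 24.8 CPM in clone 1 and 7.63 and 8.27 CPM in clone 2, a log2 change of -1.68 ± 0.26 (SE, edgeR adjusted p = 0.000212). The 4 control libraries had 24.1, 27.3, 35.5 and 25.1 CPM, like RBM45 KO clone 1, and the 4 KO rescue libraries 11.8, 12, 10.8 and 12 CPM, nearer to RBM45 KO clone 2. Nupr1 thus split the clones across genotypes. KO rescue clone 2 over KO rescue clone 1 had none of the 35 called, where 0.807% of all genes were higher and 1.48% lower (edgeR), with 6 of the 35 at an unadjusted p under 0.05 and 0 by DESeq2. Without the filter on low counts 6 of the 35 were called here, where 1.99% of all 31806 genes were, and 6 between the RBM45 KO clones, where 7.76% were. The smallest p belonged to 3 ER chaperones or folding enzymes: Pdia4 (-0.59 ± 0.19, edgeR adjusted p = 0.154), Hspa5 (-0.53 ± 0.18, edgeR adjusted p = 0.174) and Calr (-0.57 ± 0.20, edgeR adjusted p = 0.202, all SE). For each of them both libraries of clone 2 lay below both of clone 1, as with 207 and 236 CPM against 138 and 159 CPM for Calr. Between these clones the counts at an unadjusted p and by DESeq2 have no share of all genes beside them and are not read further.

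Beyond the 35, 6 further lists of 91 genes were read in the same fits, of which 88 passed the filter on low counts. The transfer RNA synthetases, which charge transfer RNA and many of which ATF4 is known to switch on, had 8 of 12 lower in METTL3 KO than in WT and 0 higher (edgeR), with a median log2 change of -0.77. Without WT library 1 their median was -0.46. Against the control clones 7 were lower, where 14.5% of all genes were, with a median of -0.47. The other lists are given only against both WT libraries. The stress kinases, ER sensors and eIF2 genes had 5 of 16 lower and 1 higher, and further ATF4 targets 3 of 17 lower and 0 higher. Genes of ER folding and of the removal of misfolded ER proteins had 3 of 27 lower and 1 higher, cytosolic heat shock genes 4 of 8 lower and 0 higher, and genes of the mitochondrial unfolded protein response 2 of 8 lower and 0 higher. Over all genes 11.8% were lower and 11.2% higher in this comparison.

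Hspa9, the main mitochondrial HSP70 chaperone, had 216 and 150 CPM in WT and 91.8 and 98.8 CPM in METTL3 KO, a log2 change of -0.94 ± 0.17 (SE, edgeR adjusted p = 0.000809). Derl1, part of the channel that takes misfolded proteins out of the ER, had 49.5 and 46.0 CPM in WT and 29.6 and 28.7 CPM in METTL3 KO, a log2 change of -0.71 ± 0.13 (SE, edgeR adjusted p = 0.00119). Both were also lower against WT library 2 alone (log2 change -0.66 for Hspa9 and -0.66 for Derl1). Hspa9 in METTL3 KO lay below all control libraries, which had 133 to 179 CPM. Derl1 in METTL3 KO lay above control clone 1 (24.1 and 22.8 CPM) and below control clone 2 (75.6 and 63.3 CPM). Mbtps2, a protease that activates ATF6, rose by 0.54 (edgeR adjusted p = 0.0309) and Txndc11 by 0.43 (edgeR adjusted p = 0.0265), and neither passed without WT library 1 (edgeR adjusted p = 0.157 and 0.117).

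In the control clones against WT, Ddit4, an inhibitor of mTORC1 signalling, fell by 1.15 on the log2 scale (edgeR adjusted p = 0.00586) and Slc1a5, a glutamine transporter, by 0.93 (edgeR adjusted p = 0.00586). Neither passed without WT library 1 (edgeR adjusted p = 0.362 and 0.262). None of the 88 genes was called in the 3 comparisons over clones, where the smallest edgeR adjusted p over the lists was 0.754 in RBM45 KO against control, 0.662 in KO rescue against RBM45 KO and 0.276 in KO rescue against control. In KO rescue against control the further ATF4 targets had a median log2 change of 0.57, beside -0.01 over all genes, with 15 of 17 above 0. Of these genes 7 had an unadjusted p under 0.05, and the number over all genes is given above with this comparison. The other lists are not given for this comparison, so nothing is read from this list alone.

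Clones of 1 genotype differed in these lists too. Derl1 had 24.1 and 22.8 CPM in control clone 1 and 75.6 and 63.3 CPM in control clone 2, a log2 change of 1.57 ± 0.13 (SE, edgeR adjusted p = 1.96e-07), and Tars, threonyl transfer RNA synthetase, had 41.9 and 44.4 CPM against 135 and 87.8 CPM, a log2 change of 1.36 ± 0.21 (SE, edgeR adjusted p = 0.000157). Stc2, a secreted glycoprotein, was lower in control clone 2 (-1.19, edgeR adjusted p = 0.00369), as was Dnajc10, an ER disulfide reductase (-0.48, edgeR adjusted p = 0.00776). Between the RBM45 KO clones, Ppp1r15b, the constitutive subunit that guides the eIF2 phosphatase, had 91.3 and 81.4 CPM in clone 1 and 43.3 and 44.4 CPM in clone 2, a log2 change of -0.98 ± 0.14 (SE, edgeR adjusted p = 7.78e-05). The eIF2 kinase gene Eif2ak3, which codes for PERK, was lower in clone 2 as well (-0.72, edgeR adjusted p = 0.00529), whereas Nars, asparaginyl transfer RNA synthetase (0.80, edgeR adjusted p = 0.00923), and Derl1 (0.54, edgeR adjusted p = 0.00923) were higher. For Ppp1r15b the 4 KO rescue libraries had 37.3 to 41.7 CPM and the controls 61.3 to 79.9 CPM, so that this gene, like Nupr1, set RBM45 KO clone 1 with the controls and clone 2 with KO rescue.

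Exon bins were tested against the other bins of the same gene, which asks for altered splicing or ends of these transcripts. Of 101929 bins tested 370 belonged to 34 of the 35 genes. None of these was called in METTL3 KO against WT, where 0.0137% of all bins were, in RBM45 KO against control, where 0.0422% were, or in KO rescue against RBM45 KO, where 0.0392% were (diffSpliceDGE of edgeR). At an unadjusted p under 0.05 there were 1, 3 and 1 of the 370. The smallest p of METTL3 KO against WT belonged to the bin chr9:106887429-106888752 in the last exon of Manf, all of it 3′ untranslated, with a relative log2 change of -1.41 ± 0.46 (SE, edgeR adjusted p = 1). In RBM45 KO against control the 3 bins lay in the same joined row but in exons of Rbm15b, not of Manf, with relative log2 changes of 0.29 to 0.52. In KO rescue against RBM45 KO it belonged to chr19:27244199-27244340 of Vldlr, which holds exon 14 of its first annotated transcript (-0.92 ± 0.43, SE, edgeR adjusted p = 1).

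The deposited annotation sets apart a bin of 26 bases inside Xbp1, as long as the piece that IRE1 cuts out. It is shown here in capitals with 20 coding bases on either side, from the GENCODE transcript Xbp1-201 (chr11:5524250-5524315, plus strand).

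Xbp1: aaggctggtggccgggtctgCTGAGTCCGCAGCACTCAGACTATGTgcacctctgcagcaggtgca

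IRE1 is known to cut between gtccg and cagc, which lies 9 bases after the start of this bin, so the bin as annotated (chr11:5524270-5524295) covers the piece only in part and its counts do not measure Xbp1 splicing. It held 1 to 10 counts per library and 65 in all 16, too few for the test, beside 136 in the bin before it (31 bases) and 263 in the bin after it (89 bases).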

How the data were processed

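Ribodepleted RNA of 16 libraries (8 groups of 2) was measured. Per the submitters' processing notes, reads were aligned to mm10 with HISAT2 2.1.0. Per the file headers, featureCounts 1.6.3 counted read pairs with a strand setting over a flattened Ensembl 98 annotation of GRCm38, asking for an overlap fraction of 0.1. The deposited values are raw counts per gene body, introns included, and per exon bin, and are not expected or estimated counts. The labels name a kit that does not mark strand.

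From these counts CPM were computed with TMM scaling. Counts were tested with the quasi-likelihood test of edgeR 4.0.16 (R 4.3.3) after filtering low genes, with Benjamini-Hochberg adjustment over all genes tested and a threshold of 0.05. Comparisons of RBM45 genotypes used 6 clones with libraries summed (3 residual degrees of freedom). Those of WT, METTL3 KO and single clones used all 16 libraries (8 residual degrees of freedom). No label says that libraries of a group came from separate cultures, so the p-values cover only how these libraries vary, which may be technical. Exon bins averaging 10 counts or more were tested with diffSpliceDGE. The scripts were tested on simulated data.

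Alternatives were DESeq2 1.42.0, RLE scaling, no filter, abundant genes left out, exon bins alone, the control clones in place of WT, a replicate block, and each library or clone left out. Exon bins alone with WT library 1 left out was chosen after seeing the data. Across groups the deviations of same-numbered libraries correlated from -0.23 to 0.36 (28 pairs of groups, 11 over 0.1), so the numbers were not taken to pair the libraries. Among the 35 genes library 1 was the higher in 25 to 33 of them in WT, both control clones and both RBM45 KO clones, and in 8 to 12 in the other groups. The genes and lists were chosen with earlier results of these data known. Named in each comparison were Atf4, Ddit3, Asns, Hspa5 and Xbp1 where they bear on it, up to 8 called genes with the smallest p, or the 3 smallest where none was called. Further lists gave up to 2 called genes per direction, and exon bins up to 5 called. Genes named for their order by library, or for calls under an alternative, were chosen after their values were seen. Symbols came from GENCODE M21 and promoters from RefSeq (GRCm38.p6).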

Additional observations from a re-analysis of the deposited data

Results flagged for a closer look

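Between clones of 1 genotype, 5 values of the 35 genes differed by a test of the difference itself (edgeR, spread between libraries). Of all genes 9.96% were higher and 9.61% lower in control clone 2 than in clone 1, and 6.49% and 7.65% in RBM45 KO clone 2 than in clone 1. Nupr1 was lower in RBM45 KO clone 2 than in clone 1 by a log2 change of -1.68, in 2 of 2 libraries. In control clone 2 against control clone 1, Creld2 changed by 1.41, Vldlr by 0.99, Herpud1 by 0.83 and Cebpg by -0.60, each with both libraries of a clone on the same side of both of the other.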

How the results depend on the processing

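Counts of the 35 genes called were recomputed under each alternative. Without a filter on low counts there were 18 in control clones against WT and 9 in control clone 2 against 1. There were also 6 in RBM45 KO clone 2 against 1, where 7.76% of all genes were called, and 6 in KO rescue clone 2 against 1, where 1.99% were. DESeq2 gave 2 in KO rescue against control, where 0.632% of all genes were higher, counted with or without an adjusted p. With the spread between libraries there were 2 in RBM45 KO against control, where 7.85% of all genes were higher and 7.63% lower. There were 6 in KO rescue against RBM45 KO (9.62% and 8.37%) and 15 in KO rescue against control (17.5% and 16.9%). With that spread and the replicate block there were 2, 6 and 18. The block moved no other count of calls by over 1.5 times. With the control clones in place of WT METTL3 KO had 8, where 16.1% of all genes were higher and 14.5% lower. From exon bins without WT library 1 there were 5 in METTL3 KO and 0 in control clones against WT. Leaving out 1 library or clone gave 5 to 25 in METTL3 KO against WT, 0 to 24 in control clones against WT, 3 to 7 in control clone 2 against 1 (7 without control clone 2 library 2), and 0 to 1 in KO rescue against control, where Nupr1 was called without RBM45 KO clone 1 or clone 2. A count given here without a share of all genes shows only that the processing moves it. The causes were not tested. Of 558 values of named genes 455 kept direction and side of the threshold, 59 no longer passed, 28 newly passed and 16 changed sign. In METTL3 KO against WT, Ddit3 turned to 0.53 and Slc7a11 to 0.02 against the controls, and with 1 library left out Ddit3 ran from -0.90 (without WT library 2) to 0.05 (without WT library 1) and Xbp1 from -0.48 to 0.10 for the same libraries. From exon bins without WT library 1, Atf4 was at 0.02, Ddit3 at 0.06 and Xbp1 at 0.24. In control clones against WT, between leaving out WT library 2 and WT library 1, Atf4 ran from -0.89 to 0.04, Asns from -1.15 to 0.01, Xbp1 from -0.46 to 0.12 and Slc7a1 from -1.27 to 0.02, and from exon bins without WT library 1 Atf4 was at 0.04 and Xbp1 at 0.20. Hspa5 was at -0.06 without WT library 2, -0.14 without control clone 1 library 1, -0.04 without control clone 2 library 1 and 0.21 without control clone 1 library 2. The 2 clones per genotype, and 1 for METTL3 KO, limit what these counts can show.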
